A study of Mus musculus with 12 samples.

Results

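The genes of 9 ligand-activated receptors were followed through livers of WT and *Pctp*-/- mice on chow or the methionine and choline depleted (MCD) diet. They were the pregnane X receptor PXR (*Nr1i2*), the constitutive androstane receptor CAR (*Nr1i3*), the liver X receptors LXRα (*Nr1h3*) and LXRβ (*Nr1h2*), the aryl hydrocarbon receptor AHR (*Ahr*), estrogen receptor α (*Esr1*), the thyroid hormone receptors TRα (*Thra*) and TRβ (*Thrb*), and the vitamin D receptor VDR (*Vdr*). They were taken by name, as receptors of this kind other than the PPARs, RXRs, FXR and the glucocorticoid receptor, by a rule that uses no measured value. The choice was made with earlier results of these data known. All 9 were among the 35275 genes listed, and 8 were among the 12466 genes that reached a mean FPKM of 0.5 and were tested. FPKM is the number of fragments assigned to a gene, scaled by the length of the gene and by the depth of the library, so levels can be compared between genes. The receptor left out of the test was *Vdr*.

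The 4 groups were WT mice on chow, *Pctp*-/- mice on chow, WT mice on MCD and *Pctp*-/- mice on MCD, with 3 livers in each and 12 libraries in all. *Pctp*-/- mice lack phosphatidylcholine transfer protein (PC-TP) in every tissue and not in the liver alone. The study describes male mice, and the age of these animals and the time on the diet are not given in the sources used here. The comparisons ask how the diet changed receptor transcripts in each genotype, how the knockout changed them on each diet, and whether the response to the diet depended on the genotype. The targeted gene checked the labels: *Pctp* was at 1.21 to 2.65 FPKM in the WT livers on chow and 3.61 to 7.90 on MCD, against 0.33 to 0.57 and 0.16 to 0.33 in *Pctp*-/- livers. Albumin (*Alb*), the main secreted protein of hepatocytes, was at 26290 FPKM or more in every library, with 7 of 7 hepatocyte markers present.

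Nuclear receptors are transcription factors that are switched by small lipophilic ligands. PXR, CAR, the LXRs, VDR and the thyroid hormone receptors act on DNA as heterodimers with a retinoid X receptor, whereas the estrogen receptor acts as a homodimer, and AHR, which belongs to another protein family, waits in the cytoplasm with chaperones and binds DNA together with ARNT. In the liver, PXR and CAR are known for the control of drug and bile acid metabolism, LXRs for sterol and fatty acid genes, AHR for the Cyp1a genes, and TRβ for the metabolic actions of thyroid hormone.

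The libraries held 30486576 to 55179468 uniquely mapped reads on chow and 33463498 to 46246856 on MCD. Each diet made up its own set of libraries by read quality: the share of reads that mapped uniquely lay between 77.6 and 79.4% for chow and between 85.7 and 87.5% for MCD, the given error rate was 0.03% against 0.01%, and the GC content of the reads was 49.8 to 51.2% against 48.4 to 49.2%. None of these ranges overlapped, so an effect of diet and an effect of sequencing cannot be told apart. Both genotypes were present in each set. The GC difference touches the receptors, as the longest transcript of *Nr1h2* was 60.6% GC, higher than 97.0% of the tested genes, and those of *Thra* and *Nr1h3* were 59.8% and 56.8%. *Nr1i2* and *Nr1i3* lay at 53.2% and 53.0%, and *Ahr*, *Esr1* and *Thrb* at 46.2%, 45.4% and 44.1%, against a median of 49.7% over 12401 tested genes. Where a result of diet below changed its call or sign or moved by over 1.5 times, it is therefore followed by its value with the trend on GC content and transcript length taken out of each library, an alternative chosen after seeing the data. That step also takes out any change of the liver that goes with GC content.

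Windows of the promoters are shown for the 3 receptors whose change with the diet passed in *Pctp*-/- livers, from 250 bases before to 50 bases after the transcript start (RefSeq, GRCm38.p6, read on the strand of the gene, CG dinucleotides in capitals). The *Nr1h2* window is chr7:44553916-44554215 on the minus strand, the first of 2 listed for *Nr1h3* is chr2:91195067-91195366 on the minus strand, and the first of 2 listed for *Esr1* is chr10:4611739-4612038 on the plus strand.
*Nr1h2*: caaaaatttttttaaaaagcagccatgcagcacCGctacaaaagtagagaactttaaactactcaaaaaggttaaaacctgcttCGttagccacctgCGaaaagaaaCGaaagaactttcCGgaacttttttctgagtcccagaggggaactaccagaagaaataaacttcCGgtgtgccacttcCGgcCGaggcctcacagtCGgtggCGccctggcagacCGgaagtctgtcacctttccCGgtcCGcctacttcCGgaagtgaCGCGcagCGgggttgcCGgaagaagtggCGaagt
*Nr1h3*: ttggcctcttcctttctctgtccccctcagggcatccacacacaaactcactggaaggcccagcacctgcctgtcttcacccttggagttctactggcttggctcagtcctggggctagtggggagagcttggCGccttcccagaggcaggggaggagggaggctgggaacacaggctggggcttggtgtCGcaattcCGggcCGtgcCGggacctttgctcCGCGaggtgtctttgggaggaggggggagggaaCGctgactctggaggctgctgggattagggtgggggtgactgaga
*Esr1*: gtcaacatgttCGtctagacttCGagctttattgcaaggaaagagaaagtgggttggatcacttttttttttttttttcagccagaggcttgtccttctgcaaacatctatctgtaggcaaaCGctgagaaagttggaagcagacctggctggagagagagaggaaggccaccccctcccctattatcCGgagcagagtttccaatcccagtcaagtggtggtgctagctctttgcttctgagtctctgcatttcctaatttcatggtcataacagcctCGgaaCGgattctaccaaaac
The *Nr1h2* window held 19 CG dinucleotides, a number reached by 28.1% of the 32851 promoter windows of this length, against 8 in the *Nr1h3* window, reached by 48.6%, and 6 in the *Esr1* window, reached by 56.4%. The median over all windows was 7. The second windows of *Nr1h3* and *Esr1*, not shown, held 10 and 12, and the latter also held 1 GCGTG. Each window was searched on both strands for AGGTCA, the hexamer that nuclear receptors recognise, for CCAAT, for the GC box GGGCGG, for GCGTG, the core bound by AHR and ARNT, and for CACGTG, the E-box. The *Esr1* window held 1 CCAAT, which 37.4% of all windows hold, and no other match was found in the windows shown. Over all windows, AGGTCA was present in 16.3%, GGGCGG in 35.7%, GCGTG in 32.4% and CACGTG in 7.15%. Of the other receptors, windows were matched for *Nr1i2*, *Nr1i3*, *Thrb* and *Vdr*. No window was used for *Thra* and *Ahr*.

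On chow the receptors of WT livers spanned a wide range of FPKM. *Nr1h3* at 60.3 ± 1.62 (SD, n = 3) and *Nr1i3* at 52.1 ± 9.48 were highest, with ranges that overlapped. *Nr1i2* at 33.9 ± 8.47 and *Nr1h2* at 32.5 ± 3.97 overlapped each other, *Nr1i2* also overlapped *Nr1i3*, and all 4 stood above the rest. *Thra* at 9.99 ± 2.25 lay above *Ahr* at 7.55 ± 0.674 and *Thrb* at 6.50 ± 0.949, and these last overlapped. *Esr1* at 2.15 ± 0.735 was below every one of these, and *Vdr* was at or near 0.

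The order in *Pctp*-/- livers on chow differed from this in that *Nr1h2*, at 35.0 ± 5.40, had a higher mean than *Nr1i2*, at 32.4 ± 6.49, with overlap, and in that *Nr1h3* did not overlap *Nr1i3*. In WT livers on MCD no neighbours overlapped, and *Ahr*, at 11.7 ± 1.06, came before *Thra*, at 9.03 ± 1.21. In *Pctp*-/- livers on MCD, *Nr1i3* at 58.0 ± 10.8 had the highest mean but overlapped *Nr1h3* at 49.7 ± 0.900, and *Thra* at 8.77 ± 1.36 overlapped *Ahr* at 8.45 ± 0.751. By the mean over all 12 libraries, *Nr1h3* ranked 1128 among the 35275 genes, *Nr1i3* 1261, *Nr1i2* 2003 and *Nr1h2* 2359, while *Esr1* ranked 7885 and *Vdr* 18495.

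**Figure D1:**
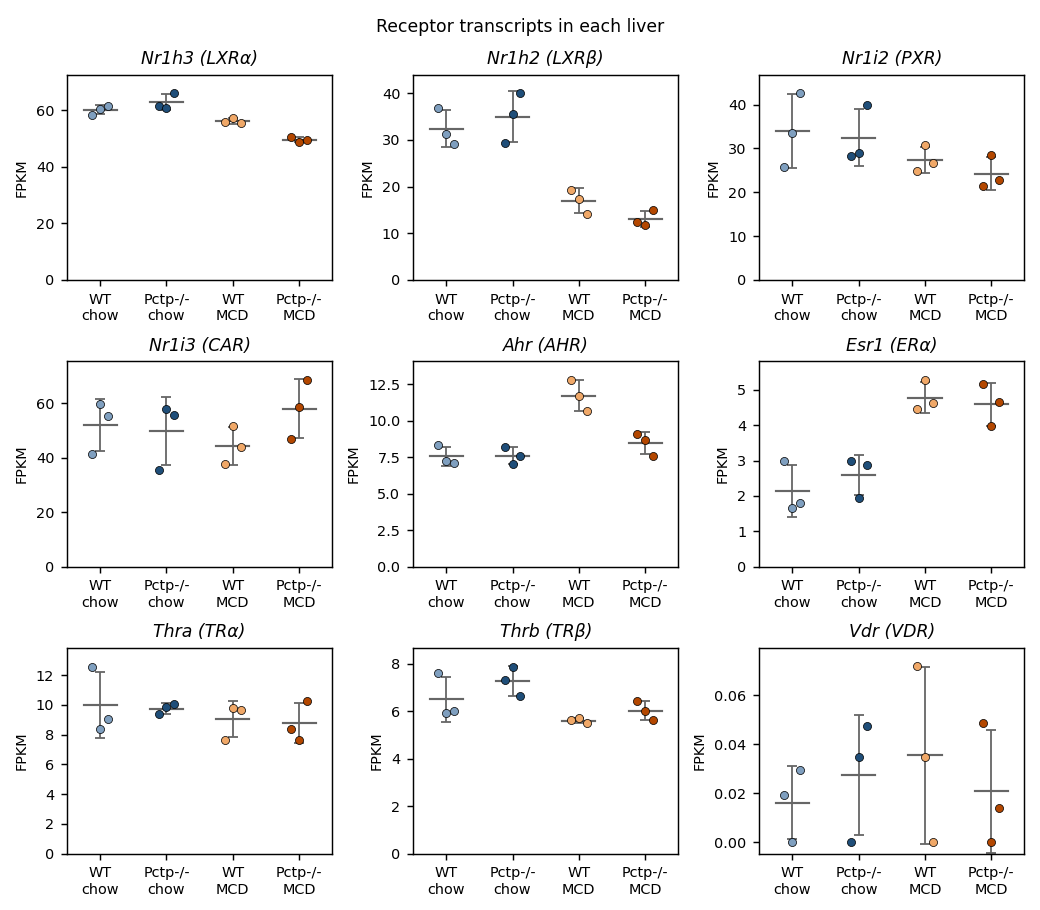
FPKM of each receptor gene (y axis, linear, a scale for each gene) in each of the 12 livers, by genotype and diet (x axis), with points for livers and bars for the mean and SD of 3 livers. *Nr1h2* lay at 29.2 or more in all livers on chow and at 19.4 or less in all livers on MCD, *Ahr* stood apart in WT livers on MCD, and *Vdr* did not exceed 0.0720 in any liver.

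The diet changed 3 of the 8 receptors tested in WT livers (37.5%), with *Esr1* and *Ahr* higher and *Nr1h2* lower. Over all genes tested, 57.0% changed in this comparison, 34.5% higher and 22.5% lower, so the receptors changed no more often than the background. In *Pctp*-/- livers 3 of 8 changed as well, *Esr1* higher and *Nr1h2* and *Nr1h3* lower, against 50.3% of all genes, 26.0% higher and 24.4% lower. The threshold was an adjusted p under 0.05 from limma, with the Benjamini-Hochberg method over all genes tested and no minimum fold change. Values of MCD and chow did not overlap for 5 of the 8 in WT livers and 4 in *Pctp*-/- livers, against 63.7% and 59.7% of all genes tested. The median log2 fold change of all genes in WT livers was 0.11, and 0.01 with either other scaling between libraries, so differences from that median are given beside the WT values of the receptors described. The number of genes higher and lower in WT livers was 4300 and 2810, and 3609 and 3498 with median-of-ratios scaling. In *Pctp*-/- livers it was 0.04. The comparisons of diet and of genotype share libraries and are not independent of each other.

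Some transcripts of cells other than hepatocytes also moved with the diet. For scale, 34.5% of all genes rose and 22.5% fell in WT livers, and 26.0% rose and 24.4% fell in *Pctp*-/- livers. Of 7 macrophage markers, 6 rose on MCD in WT livers and 3 in *Pctp*-/- livers, and their summed FPKM was 60.4 to 98.3 in WT livers with chow and 164 to 270 with MCD. In *Pctp*-/- livers the sum was 52.6 to 142 with chow and 138 to 146 with MCD, which overlapped. The stellate cell list had 6 of 8 higher in WT livers, and 4 higher and 1 lower in *Pctp*-/- livers. Its sums over both genotypes reached 45.8 at most in chow livers and 57.0 at least in MCD livers. The leukocyte list, with 3 of the 5 tested higher in each genotype, summed to at most 5.88 with chow and at least 9.96 with MCD, and of 6 endothelial markers 2 rose in WT and 0 in *Pctp*-/- livers. The activated fibroblast list had 1 of 5 higher in each genotype, and of the 4 cholangiocyte markers tested 1 rose in WT livers and 1 fell in *Pctp*-/- livers. Of 7 hepatocyte markers, 2 rose and 4 fell in each genotype. No marker of any list was at 0 in all livers of a group. In whole liver, fewer cells of a type and less RNA per cell cannot be told apart, and the part of these shifts in the receptor results was not tested.

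LXRs are sensors of oxidised cholesterol. LXRβ is found in most tissues, and LXRα mainly in liver, gut, fat and macrophages. *Nr1h2* (ENSMUSG00000060601, chromosome 7, 44549616 to 44553951, minus strand, mm10) was at 36.9, 31.2 and 29.2 FPKM in the 3 WT livers on chow and at 29.3, 35.7 and 40.0 in the *Pctp*-/- livers on chow. On MCD it was at 19.4, 17.4 and 14.1 in WT livers and at 12.3, 11.7 and 15.0 in *Pctp*-/- livers. All 6 livers on MCD were thus below all 6 on chow, and the WT and *Pctp*-/- livers overlapped on each diet. The log2 fold change on MCD was -0.90 in WT (SE 0.15, adjusted p = 0.000277 from limma), -1.01 relative to the median of all genes, and -1.36 in *Pctp*-/- livers (SE 0.15, adjusted p = 1.72e-05). With the GC and length trend taken out, it was -0.50 (adjusted p = 0.00202) and -0.74 (adjusted p = 0.000224), still called but much smaller. The difference between the genotypes in this response was -0.45 (95% CI -0.91 to 0.00045), which did not pass (adjusted p = 0.331).

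*Nr1h3* (ENSMUSG00000002108, chromosome 2, 91184061 to 91202834, minus strand) had the smallest standard error of the 8 receptors tested. It was at 58.5, 60.7 and 61.7 FPKM in WT livers and at 61.5, 60.9 and 66.1 in *Pctp*-/- livers on chow. With MCD its values were 55.9, 57.4 and 55.5 in WT livers and 50.7, 48.9 and 49.4 in *Pctp*-/- livers. The *Pctp*-/- livers on MCD were the lowest of the 12, and no value of theirs overlapped with WT livers on MCD. This difference of genotype on MCD was -0.18 on the log2 scale, and -0.08 relative to the median of all genes. With the GC and length trend taken out it was -0.04 (adjusted p = 0.895 from limma). The fall with the diet passed in *Pctp*-/- livers, with a log2 fold change of -0.33 (SE 0.07, adjusted p = 0.00214 from limma), and not in WT livers, with -0.10 (95% CI -0.25 to 0.06, adjusted p = 0.262), or -0.21 relative to the median of all genes. With median-of-ratios scaling the WT change was -0.23 and passed as well (adjusted p = 0.031 from limma). The difference of these responses was -0.24 (95% CI -0.45 to -0.02, adjusted p = 0.296) and did not pass. The call in *Pctp*-/- livers was lost with the GC and length trend taken out, where the fold change was -0.00099 (adjusted p = 0.993) in *Pctp*-/- and 0.05 in WT livers. *Nr1h3* shares 34 of its 2515 exonic bases with *Gm13783* on the same strand, which was at 0.440 FPKM or less.

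Transcripts of the LXR pair stood in another proportion on MCD. The ratio of *Nr1h3* to *Nr1h2* within a library was 1.59, 1.94 and 2.11 in WT livers on chow and 2.89, 3.30 and 3.93 on MCD. In *Pctp*-/- livers it was 2.10, 1.71 and 1.65 on chow and 4.10, 4.18 and 3.29 on MCD. No value on MCD overlapped with one on chow, and the exact permutation test (two-sided, 3 against 3) gave p = 0.1 in each genotype, the smallest p this design allows. The means on chow and MCD were 1.88 ± 0.267 and 3.37 ± 0.528 (SD, n = 3) in WT and 1.82 ± 0.245 and 3.86 ± 0.492 in *Pctp*-/- livers, and the genotypes overlapped on each diet (exact permutation p = 0.9 on chow and 0.3 on MCD). The transcripts differ in GC content. With the GC and length trend taken out, the changes on MCD in WT and *Pctp*-/- livers were 0.05 and -0.00099 for *Nr1h3*. For *Nr1h2* they were -0.50 and -0.74, and the ratio itself was not tested in this way.

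**Figure D2:**
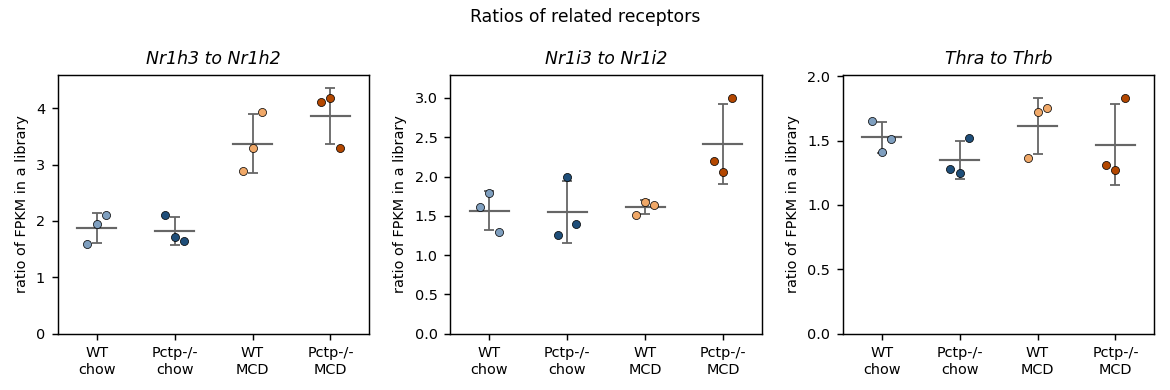
Ratio of the FPKM of related receptors within each library (y axis, linear from 0) by genotype and diet (x axis), with points for livers and bars for the mean and SD of 3 livers. The ratio of *Nr1h3* to *Nr1h2* was at most 2.11 in livers on chow and at least 2.89 in livers on MCD, that of *Nr1i3* to *Nr1i2* was 2.06 to 3.00 in *Pctp*-/- livers on MCD and at most 2.00 elsewhere, and that of *Thra* to *Thrb* overlapped between all groups.

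Of 18 LXR targets, genes whose transcription LXRs are known to drive, 7 rose and 6 fell on MCD in WT livers, and 5 rose and 4 fell in *Pctp*-/- livers. Their median log2 fold change was 0.23 in WT and 0.08 in *Pctp*-/- livers, against 0.11 and 0.04 over all genes. The share of all genes that changed was 57.0% in WT and 50.3% in *Pctp*-/- livers. Of the members with the largest changes, *Scd1*, the stearoyl-CoA desaturase, went from 1359 ± 359 to 1.72 ± 0.257 FPKM (SD, n = 3) in WT livers, a log2 fold change of -8.94, and by -8.73 in *Pctp*-/- livers, *Srebf1*, the sterol regulatory factor above it, changed by -2.10 in WT livers, and *Fasn*, the fatty acid synthase, by -2.32 in *Pctp*-/- livers. *Lpl*, lipoprotein lipase, went from 3.38 ± 1.19 to 49.3 ± 15.2 FPKM in WT livers, with log2 fold changes of 3.52 in WT and 2.84 in *Pctp*-/- livers. *Smpdl3a*, a secreted phosphodiesterase, rose by 1.07 in WT livers (0.67 with the GC and length trend taken out), and *Abcg1*, a cholesterol exporter, by 0.82 in *Pctp*-/- livers. The classic target *Abca1*, named here after its value was seen, was at 20.4 ± 6.67 and 21.3 ± 2.82 FPKM in WT livers and did not pass (adjusted p = 0.698 from limma). No member passed for genotype on either diet or for the difference of the responses, where 0 members on chow, 0 on MCD and 1 for the difference had an unadjusted p under 0.05.

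PXR and CAR detect drugs, bile acids and other foreign or toxic compounds and share many target genes. *Nr1i2* (ENSMUSG00000022809, chromosome 16, 38248323 to 38294824, minus strand) was at 25.7, 33.4 and 42.6 FPKM in WT livers on chow and at 28.3, 29.0 and 39.9 in *Pctp*-/- livers on chow. MCD livers were at 24.9, 30.7 and 26.7 in WT livers and at 21.4, 28.4 and 22.8 in *Pctp*-/- livers. The 4 ranges overlapped for each comparison. The log2 fold change on MCD was -0.27 in WT (95% CI -0.67 to 0.13, adjusted p = 0.223 from limma; -0.38 relative to the median of all genes) and -0.40 in *Pctp*-/- livers (95% CI -0.80 to -0.00028, adjusted p = 0.0882).

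*Nr1i3* (ENSMUSG00000005677, chromosome 1, 171213970 to 171220701, plus strand) was at 41.5, 59.6 and 55.3 FPKM in WT livers and at 35.6, 58.0 and 55.9 in *Pctp*-/- livers on chow. In livers on MCD it was at 37.6, 51.7 and 43.9 in WT livers and at 47.0, 58.6 and 68.5 in *Pctp*-/- livers. All ranges overlapped, and no comparison passed: the fold change of the knockout on MCD was 0.37 (95% CI -0.07 to 0.82, adjusted p = 0.394 from limma), and the difference of the diet responses was 0.45 (95% CI -0.18 to 1.08, adjusted p = 0.488). In the annotation 3304 of the 4414 exonic bases of *Nr1i3* are shared with *Tomm40l* on the opposite strand, and the strand setting of the counting is not given in the sources used here. *Tomm40l* was at 1.28 to 2.64 FPKM, against 35.6 or more for *Nr1i3*. Both values depend on how shared fragments were assigned, which was not tested.

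The ratio of *Nr1i3* to *Nr1i2* was at 1.62, 1.78 and 1.30 in WT livers on chow, 1.26, 2.00 and 1.40 in *Pctp*-/- livers on chow, and 1.51, 1.68 and 1.64 in WT livers on MCD. In *Pctp*-/- livers on MCD it was at 2.19, 2.06 and 3.00, above all 9 other livers. The means on MCD were 1.61 ± 0.0897 in WT and 2.42 ± 0.508 (SD, n = 3) in *Pctp*-/- livers, and the exact permutation test gave p = 0.1, the smallest possible, for genotype on MCD and for the diet in *Pctp*-/- livers. On chow the genotypes overlapped (exact permutation p = 0.9). The part of fragments shared between *Nr1i3* and *Tomm40l* in this ratio was not tested.

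Genes that PXR is known to induce moved both ways with the diet. Of 17, 6 rose and 6 fell in WT livers and 4 rose and 6 fell in *Pctp*-/- livers, with medians of -0.29 and -0.32. Over all genes, 57.0% changed in WT livers and 50.3% in *Pctp*-/- livers, with medians of 0.11 and 0.04. *Abcb1a*, the drug efflux pump P-glycoprotein, went from 0.458 ± 0.140 to 5.59 ± 0.876 FPKM (SD, n = 3) in WT livers, with log2 fold changes of 2.17 in WT and 2.11 in *Pctp*-/- livers, and *Slco1a4*, an uptake carrier of organic anions, rose by 1.63 in *Pctp*-/- livers. *Ces2a*, a carboxylesterase, went from 293 ± 22.5 to 58.2 ± 23.8 FPKM in WT livers (-2.41, and -3.11 in *Pctp*-/- livers), and *Abcc3*, a basolateral exporter of conjugates, fell by 2.07 in WT livers on the log2 scale. Of 15 CAR targets, 9 of which also stand in the PXR list, 6 rose and 3 fell in WT livers and 5 rose and 4 fell in *Pctp*-/- livers, with medians of 0.26 and -0.13. *Gadd45b*, a stress response gene, rose by 2.86 in WT and 1.69 in *Pctp*-/- livers, *Cyp2c37* by 1.58 in *Pctp*-/- livers, while *Alas1*, the first enzyme of heme synthesis, fell by 2.03 in WT livers and *Cyp2c29* by 2.11 in *Pctp*-/- livers. Cyp2c and Cyp3a genes and glutathione transferases have close copies that can share reads, so the values of single members are uncertain.

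On MCD, 5 of the 17 PXR targets and 4 of the 15 CAR targets were lower in *Pctp*-/- livers and 0 were higher, against 0.521% of all genes lower and 0.297% higher, with 3 of the genes in both lists. The lists were chosen with earlier results of these data known, so these shares are no test of the lists as sets. Over the alternatives these numbers ran from 2 to 5 and from 1 to 7, with the fewest when only the 6 livers on MCD were fitted, and the CAR list had 2 without replicate 2 of the WT livers or without replicate 2 or 3 of the *Pctp*-/- livers and 7 without replicate 1 of the WT livers. The PXR list had 3 without replicate 2 of the WT livers or without replicate 1 or 2 of the *Pctp*-/- livers. Over all genes, 37 were higher and 65 lower, against 34 and 35 with median-of-ratios scaling and 69 and 41 with quantile normalization. The medians were -0.47 and -0.49, against -0.09 over all genes. Sums of the hepatocyte, macrophage and endothelial markers also stood apart between these groups. Those of the stellate cell, activated fibroblast, cholangiocyte and leukocyte markers overlapped. No single marker of any list passed for genotype on MCD, and values of 26.6% of all genes tested did not overlap in this comparison. The hepatocyte sum was 49518 to 55512 FPKM in WT and 63230 to 69279 in *Pctp*-/- livers, the macrophage sum 164 to 270 and 138 to 146, and the endothelial sum 54.8 to 67.7 and 49.0 to 54.1, and their part in the result was not tested. A sum of FPKM follows its most abundant members. The median log2 fold changes of these 3 lists were 0.10, -0.51 and -0.21, against -0.09 over all genes. *Cyp2b10*, the gene most used as a readout of CAR, was at 87.2, 224 and 244 FPKM (lowest to highest) in WT livers on MCD and at 17.0, 19.5 and 24.0 in *Pctp*-/- livers, so the groups lay far apart, with a log2 fold change of -3.02 (SE 0.43, adjusted p = 0.00738 from limma). In WT livers it had risen with the diet from 44.3 ± 28.8 FPKM (SD, n = 3), by 2.09 (adjusted p = 0.00132 from limma). The difference of its diet responses, -3.12, did not pass (adjusted p = 0.0694 from limma). *Cyp2c55* was at 8.28 ± 1.22 in WT and 2.33 ± 1.00 FPKM (SD, n = 3) in *Pctp*-/- livers (-1.51, adjusted p = 0.0027 from limma), and its diet response was the sole member of these lists to differ between the genotypes, by -1.61 (adjusted p = 0.0488 from limma), a call that was lost in most alternatives. *Cyp3a11*, the main inducible Cyp3a enzyme of mouse liver, was at 1856 ± 39.4 and 1018 ± 65.1 FPKM (-0.87, adjusted p = 0.00266). *Gstm1* at 1067 ± 127 and 619 ± 104 FPKM, *Gstm3* at 353 ± 122 and 132 ± 18.2, and *Gsta1* at 51.5 ± 50.6 and 4.29 ± 1.75, all conjugating enzymes, were also lower, by 0.79, 1.37 and 2.84 on the log2 scale. The calls of *Gsta1*, *Gstm1* and *Gstm3* rested on the setting, as they passed in 5, 16 and 19 of 23 alternatives each. On chow 0 members of any list passed, and 1 PXR and 1 CAR target had an unadjusted p under 0.05.

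**Figure D3:**
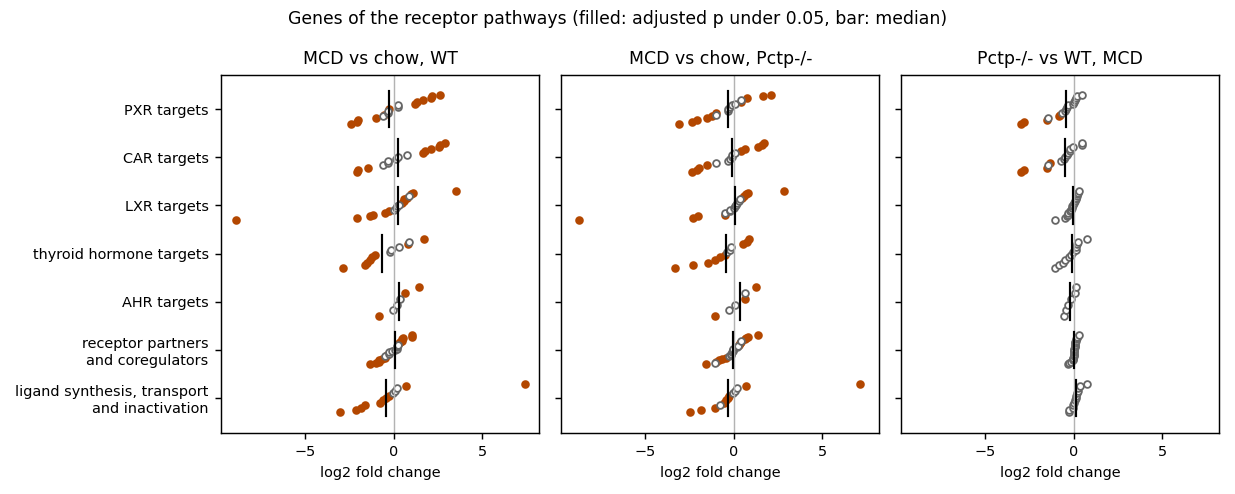
Log2 fold change (x axis) of each tested gene of 7 lists (y axis) in the comparisons of diet in WT, of diet in *Pctp*-/-, and of genotype on MCD, with a point for each gene, filled where the adjusted p was under 0.05, and a bar for the median of the list. On MCD the filled points of PXR and CAR targets all lie below 0, while each diet panel holds filled points on both sides of 0.

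AHR is activated by planar aromatic compounds and tryptophan metabolites. *Ahr* (ENSMUSG00000019256, chromosome 12, 35497974 to 35535038, minus strand) was at 8.33, 7.21 and 7.12 FPKM in WT livers on chow and at 8.17, 7.01 and 7.58 in *Pctp*-/- livers on chow. The MCD values were 12.8, 11.7 and 10.7 in WT livers and 9.05, 8.70 and 7.61 in *Pctp*-/- livers. The 3 WT livers on MCD were the highest of the 12 and did not overlap with any other group. The rise with the diet passed in WT livers, with a log2 fold change of 0.57 (SE 0.10, adjusted p = 0.000636 from limma), 0.46 relative to the median of all genes, and not in *Pctp*-/- livers, with 0.14 (95% CI -0.09 to 0.37, adjusted p = 0.295). With the GC and length trend taken out these were 0.43 (adjusted p = 0.00107 from limma) and 0.012.

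Neither the knockout effect on MCD nor the difference of the responses passed for *Ahr*. The former was -0.42 (95% CI -0.65 to -0.20, adjusted p = 0.0877 from limma), and over 23 alternatives its adjusted p ranged from 0.0568 to 0.267. The latter was -0.43 (95% CI -0.75 to -0.11, adjusted p = 0.199 from limma), with a range from 0.123 to 0.365 over 22 alternatives. These values share the WT livers on MCD. The summed macrophage markers were also highest there, at 164 to 270 FPKM, against 138 to 146 in *Pctp*-/- livers on MCD, and the part of that in the level of *Ahr* was not tested. *Ahr* shares 127 of its 6163 exonic bases with *Gm48236* on the opposite strand, not used here.

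Of 9 AHR targets, 6 were expressed enough to be tested, and 2 rose and 1 fell in each genotype, with medians of 0.26 in WT and 0.34 in *Pctp*-/- livers. Among all genes, 57.0% changed in WT and 50.3% in *Pctp*-/- livers, so the list changed no more often than the background. *Nqo1*, a quinone reductase that also answers to NRF2, went from 2.52 ± 0.481 to 8.58 ± 3.03 FPKM (SD, n = 3) in WT livers and from 2.63 ± 0.731 to 7.42 ± 1.02 in *Pctp*-/- livers, log2 fold changes of 1.41 and 1.23. *Cyp1a1*, the most inducible target, was low, at 0.338 ± 0.147 on chow and 1.12 ± 0.350 FPKM on MCD in WT livers (0.65), and *Tiparp* rose by 0.61 in *Pctp*-/- livers, a call lost with the GC and length trend taken out (0.27, adjusted p = 0.107 from limma). *Cyp1a2*, the abundant constitutive member, fell from 616 ± 47.7 to 344 ± 48.1 FPKM in WT livers and from 537 ± 65.4 to 253 ± 30.8 in *Pctp*-/- livers. *Ahrr*, the repressor that AHR induces, did not exceed 0.0720 FPKM.

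Estrogen receptor α is the main estrogen receptor of hepatocytes. *Esr1* (ENSMUSG00000019768, chromosome 10, 4611593 to 5005614, plus strand) was at 2.99, 1.65 and 1.80 FPKM in WT livers and at 2.99, 1.95 and 2.87 in *Pctp*-/- livers on chow. Livers of mice on MCD were at 4.45, 5.27 and 4.62 in WT livers and at 5.16, 3.96 and 4.65 in *Pctp*-/- livers. Every liver on MCD was above every liver on chow, and the genotypes overlapped on each diet. The log2 fold change was 0.90 in WT (SE 0.17, adjusted p = 0.000701 from limma), 0.79 relative to the median of all genes, and 0.64 in *Pctp*-/- livers (SE 0.17, adjusted p = 0.00722), and 0.75 and 0.49 with the GC and length trend taken out, both still called. The difference of these responses was -0.26 (95% CI -0.77 to 0.26, adjusted p = 0.646). On this scale of log2(FPKM + 1) the change of a low gene is understated, and the mean FPKM rose 2.23-fold in WT and 1.76-fold in *Pctp*-/- livers.

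Of 6 estrogen receptor targets only 2 could be tested. *Ctsd*, the lysosomal protease cathepsin D, rose by 1.01 in WT and 0.94 in *Pctp*-/- livers on the log2 scale, and *Cxcl12*, a chemokine, fell by 0.48 in WT livers. *Pgr*, *Greb1*, *Tff1* and *Egr3* were under the minimum, with *Pgr* at 0.0100 FPKM or less. The gene of the list on ligands with the largest change of all inactivates estrogens: *Sult1e1*, the estrogen sulfotransferase, went from 0.0959 ± 0.0265 to 186 ± 23.9 FPKM (SD, n = 3) in WT livers and from 0.0605 ± 0.105 to 152 ± 35.0 in *Pctp*-/- livers, log2 fold changes of 7.41 and 7.15.

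TRα and TRβ bind thyroid hormone, and TRβ is known for the metabolic actions of the hormone in liver. *Thra* (ENSMUSG00000058756, chromosome 11, 98740638 to 98769006, plus strand) was at 12.6, 8.35 and 9.07 FPKM in WT livers and at 9.36, 9.83 and 10.1 in *Pctp*-/- livers on chow. On MCD it was at 7.64, 9.81 and 9.64 in WT livers and at 8.40, 7.63 and 10.3 in *Pctp*-/- livers. The ranges overlapped, and the log2 fold changes on MCD were -0.12 in WT (95% CI -0.45 to 0.21, adjusted p = 0.515 from limma; -0.23 relative to the median of all genes) and -0.15 in *Pctp*-/- livers (95% CI -0.47 to 0.18, adjusted p = 0.434). Their sign turned with the GC and length trend taken out, to 0.27 in WT and to 0.45 in *Pctp*-/- livers, where the change then passed (adjusted p = 0.0169 from limma). The annotated exons of *Thra* share 263 of 4614 bases with *Nr1d1* (REV-ERBα), a clock gene on the opposite strand that was at 78.3 to 105 FPKM in WT livers on chow and at 27.2 to 59.5 in the other livers. Part of the fragments at *Thra* could come from that gene, which was not tested.

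*Thrb* (ENSMUSG00000021779, chromosome 14, 17660261 to 18038090, plus strand) was at 7.59, 5.91 and 5.99 FPKM in WT livers and at 7.33, 7.86 and 6.63 in *Pctp*-/- livers on chow. On MCD it was at 5.61, 5.70 and 5.50 in WT livers and at 6.41, 6.02 and 5.61 in *Pctp*-/- livers. Within each genotype the livers on MCD lay below those on chow without overlap. The log2 fold changes were -0.18 in WT (95% CI -0.41 to 0.06, adjusted p = 0.179 from limma; -0.28 relative to the median of all genes) and -0.24 in *Pctp*-/- livers (95% CI -0.47 to -0.0046, adjusted p = 0.083), short of the threshold. They passed under median-of-ratios scaling (-0.29, adjusted p = 0.0254, and -0.27, adjusted p = 0.0389, from limma) and with the GC and length trend taken out (-0.37, adjusted p = 0.00347, and -0.43, adjusted p = 0.0018). *Thra* was above *Thrb* in every liver, with a ratio of 1.25 to 1.83 that overlapped between all groups. The transcripts differ in GC content. With the GC and length trend taken out, *Thra* changed by 0.27 and 0.45 on MCD in WT and *Pctp*-/- livers, opposite in sign to *Thrb*. The part of GC content and of *Nr1d1* fragments in the ratio was not tested.

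Of 12 thyroid hormone targets, 2 rose and 6 fell on MCD in WT livers and 3 rose and 6 fell in *Pctp*-/- livers, with medians of -0.66 and -0.45. Among all genes, 34.5% rose and 22.5% fell in WT livers, and 26.0% rose and 24.4% fell in *Pctp*-/- livers. *Dio1*, the deiodinase that is both a target and an activator of the hormone, went from 30.9 ± 3.30 to 9.12 ± 1.29 FPKM (SD, n = 3) in WT livers, a log2 fold change of -1.66. *G6pc*, glucose 6-phosphatase, fell by 2.90 in WT and 3.32 in *Pctp*-/- livers, though 1 *Pctp*-/- liver on MCD was at 248 FPKM and the others at 15.8 and 32.7. *Hr*, the hairless corepressor, rose from 0.0956 ± 0.00702 to 2.74 ± 1.29 FPKM in WT livers (1.70) and by 0.86 in *Pctp*-/- livers (1.71 with the GC and length trend taken out), and *Gpd2*, the mitochondrial glycerol 3-phosphate dehydrogenase, by 0.77 and 0.75. *Fasn* and *Cyp7a1* stand in the LXR list as well, and *Dio1* in the list on ligands. No member passed for genotype on either diet or for the difference of the responses, where 2, 2 and 4 members had an unadjusted p under 0.05.

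VDR is known to be nearly absent from hepatocytes. *Vdr* (ENSMUSG00000022479, chromosome 15, 97854425 to 97910630, minus strand) was listed at 0.0192, 0 and 0.0295 FPKM in WT livers and at 0, 0.0349 and 0.0475 in *Pctp*-/- livers on chow. On MCD it was listed at 0.0720, 0.0348 and 0 in WT livers and at 0.0487, 0 and 0.0140 in *Pctp*-/- livers. Each group thus held 1 liver at 0, the groups overlapped, and the exact permutation tests (two-sided, 3 against 3, smallest possible p = 0.1) gave p = 0.5 and 1 for the diet in WT and *Pctp*-/- and p = 0.6 and 0.7 for the knockout on chow and MCD. A difference was not detectable at this depth. Of 5 VDR targets, 2 were tested: *S100g*, a calcium binding protein, went from 0.0448 ± 0.0775 to 5.35 ± 2.28 FPKM (SD, n = 3) in WT livers and from 0.0480 ± 0.0832 to 5.24 ± 2.20 in *Pctp*-/- livers, and *Cyp3a11* is the PXR target given above. *Cyp24a1*, the most inducible VDR target, was listed at 0 in all 12 livers.

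**Figure D4:**
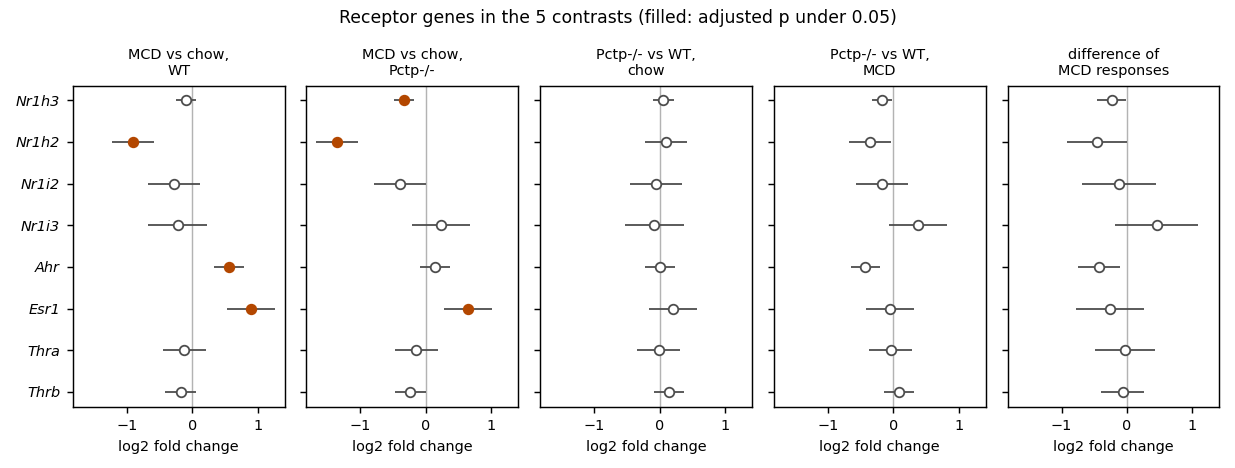
Log2 fold change of log2(FPKM + 1) (x axis) of the 8 tested receptor genes (y axis) in the 4 comparisons of groups and for the difference of the MCD responses, with lines for 95% confidence intervals and filled points where the adjusted p was under 0.05. The filled points are *Nr1h2*, *Ahr* and *Esr1* for diet in WT livers and *Nr1h3*, *Nr1h2* and *Esr1* for diet in *Pctp*-/- livers, and no point is filled in the other 3 panels.

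The knockout changed 0 of the 8 receptors on chow, 0 on MCD, and 0 responded to the diet differently between the genotypes, by limma at the threshold used. Over all genes, 0.136%, 0.818% and 0.0963% passed. The targeted gene *Pctp* passed on MCD (-2.33, adjusted p = 0.000624 from limma). It did not pass on chow (-1.07, adjusted p = 0.15) or for the difference of the responses (-1.26, adjusted p = 0.132). A receptor that did not pass is therefore not shown to be unchanged. On chow 0 receptors had an unadjusted p under 0.05 and 0 had groups that did not overlap, against 10.6% of all genes, and fold changes lay between -0.08 (*Nr1i3*) and 0.21 (*Esr1*). On MCD 3 had an unadjusted p under 0.05 (*Nr1h2*, *Nr1h3* and *Ahr*, all lower in *Pctp*-/- livers), and for *Nr1h3* and *Ahr* the groups did not overlap, against 26.6% of all genes. The knockout effect on MCD was -0.35 for *Nr1h2* (95% CI -0.68 to -0.03, adjusted p = 0.266 from limma) and -0.18 for *Nr1h3* (95% CI -0.33 to -0.02, adjusted p = 0.248). Relative to the median of all genes, the effect was -0.26 for *Nr1h2*, -0.08 for *Nr1h3* and -0.33 for *Ahr*. With the GC and length trend taken out, these 3 effects were -0.22, -0.04 and -0.37. For the difference of the responses, 2 had an unadjusted p under 0.05, *Nr1h3* and *Ahr*. Such a p from limma was found for 870 of the 12466 genes tested on chow, 2026 on MCD and 1884 for the difference. The unadjusted counts given for the gene lists have the same background.

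Genes that work with the receptors changed about as often as the background. Of 23 partners and coregulators, 7 rose and 7 fell in WT livers, and 7 rose and 5 fell in *Pctp*-/- livers, against 57.0% and 50.3% of all genes changed. The medians were 0.06 and -0.06, and 0 passed for genotype on either diet, where 2 on chow and 1 on MCD had an unadjusted p under 0.05. *Rxra*, the RXR that is most abundant in liver, went from 123 ± 10.4 to 60.9 ± 3.11 FPKM (SD, n = 3) in WT livers, a log2 fold change of -0.996 (SE 0.104, adjusted p = 9.63e-06 from limma), and -0.60 with the GC and length trend taken out. *Rxrb* went from 34.7 ± 7.49 to 16.5 ± 0.790 in *Pctp*-/- livers (-1.01), a call that was lost with that trend taken out (-0.27, adjusted p = 0.112), and *Rxrg* rose from 2.15 ± 0.315 to 5.50 ± 0.514 FPKM in WT livers (1.05). *Ppargc1a*, the coactivator PGC-1α, rose by 1.04 in WT and 1.35 in *Pctp*-/- livers, and *Tbl1xr1*, a subunit of the corepressor complex, by 0.77 in *Pctp*-/- livers (0.51 with the trend taken out).

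Genes that make, carry or inactivate the ligands were a further list. Of 22 found in the table, 13 were tested, and 2 rose and 8 fell in WT livers and 2 rose and 7 fell in *Pctp*-/- livers, where 22.5% and 24.4% of all genes fell and 34.5% and 26.0% rose. The medians were -0.44 and -0.36, against 0.11 and 0.04 over all genes. *Cyp7b1*, which hydroxylates oxysterols that LXRs bind, was at 108 ± 16.6 FPKM (SD, n = 3) in WT livers on chow, and its log2 fold changes on MCD were -3.06 in WT and -2.51 in *Pctp*-/- livers. *Cyp27a1*, the sterol 27-hydroxylase, went from 313 ± 5.11 to 85.6 ± 14.5 FPKM in *Pctp*-/- livers (-1.87), and *Cyp46a1*, the cholesterol 24-hydroxylase, fell by 2.14 in WT livers. *Serpina7*, the thyroxine-binding globulin, rose by 0.66 and 0.68, which did not pass with the GC and length trend taken out (0.10 and 0.19). None of the 13 passed for genotype on either diet, and 1 had an unadjusted p under 0.05 on each.

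The genes whose course over the 12 livers was most like that of a called receptor were found by the root mean square difference of log2(FPKM + 1), each gene centred on its own mean. For *Nr1h2* they were *Ncln*, a subunit of an endoplasmic reticulum complex (0.116), and *Armc5* (0.119), against 0.601 for the spread of *Nr1h2* itself. *Ncln* was at 37.5 ± 4.34 and 40.3 ± 3.00 FPKM (SD, n = 3) on chow and at 19.1 ± 2.42 and 14.9 ± 1.60 on MCD in WT and *Pctp*-/- livers. For *Nr1h3* they were the mitochondrial proteins *Phb*, prohibitin (0.0365), and *Sod2*, manganese superoxide dismutase (0.0442), against a spread of 0.130. For *Esr1* they were *Cd164* (0.102) and *Tmed7* (0.123), against 0.432. For *Ahr* they were *Acp2*, a lysosomal acid phosphatase (0.0637), and *Sf3b3*, a splicing factor (0.0786), against 0.249. *Acp2* was at 9.38 ± 0.566 and 9.98 ± 0.859 FPKM on chow and at 14.7 ± 0.517 and 11.3 ± 0.597 on MCD in WT and *Pctp*-/- livers. Its highest values were in WT livers on MCD as for *Ahr*, which follows from its choice by likeness.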

How the data were processed

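Liver RNA of 12 mice was sequenced, 3 per group. The authors deposited FPKM per gene and library, and a table of read totals and other quality measures, used here for depth and GC content. The build was mm10 in the submitters' processing notes, and the aligner, counter, annotation and strand setting are not given in the sources used here. FPKM values are not counts, so the Wald test of the study was replaced by limma 3.58.1 (R 4.3.3) on log2(FPKM + 1). It was fitted to 12466 genes whose mean FPKM reached 0.5, with 4 group means, an intensity trend for the variance, and p-values adjusted by Benjamini-Hochberg over all these genes. The script was tested on simulated data. No pair of libraries was identical. Symbols, positions and GC content came from GENCODE M21.

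The receptors and lists were chosen with earlier results of these data known. The text names every receptor, up to 2 genes per list, comparison and direction with the largest called changes whose groups do not overlap, the 2 genes most like each called receptor, and genes that overlap a receptor. Some items that this rule names are not reported here. Alternatives were the pseudocount, filter, scaling, trend and robust options, fitting only the 6 libraries compared, a replicate block, each library left out, a minimum fold change and, added later, a correction for GC content and length. The labels call the 3 livers of a group biological replicates.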

Additional observations from a re-analysis of the deposited data

Results flagged for a closer look

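The MCD response of *Cyp2c55*, a cytochrome P450 in the PXR and CAR lists, differed between the genotypes by -1.61 on the log2 scale in the test of the difference itself (adjusted p = 0.0488 from limma). It went from 1.91 ± 0.280 to 8.28 ± 1.22 FPKM in WT livers and from 2.12 ± 0.308 to 2.33 ± 1.00 in *Pctp*-/- livers (SD, n = 3). The difference kept its sign in all 21 alternatives, from -1.99 to -1.44, and passed in 6 of them (adjusted p from 0.0164 to 0.172). Cyp2c genes can share reads. No receptor gene differed between the genotypes in this test.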

How the results depend on the processing

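Of the 6 receptor changes called for diet, those of *Nr1h2*, *Esr1* and *Ahr* passed in every alternative fit without a minimum fold change (*Esr1* not tested at a minimum FPKM of 5), and that of *Nr1h3* in *Pctp*-/- livers passed in 22 of 23 and not with the GC content and length correction (-0.00099, adjusted p = 0.993 from limma). With median-of-ratios scaling 5 receptors passed for diet in WT livers, *Nr1h3* and *Thrb* in addition. With a minimum log2 fold change of 1 the numbers were 0 in WT and 1 (*Nr1h2*) in *Pctp*-/- livers. Leaving out a library gave 3 to 4 in each genotype, 4 without replicate 1 of the WT livers on chow (*Nr1i2* passed in addition in WT, *Thrb* in *Pctp*-/-). Livers with the same replicate number did not deviate together (correlations of -0.0972 to 0.199), so the numbers were not used as pairs. With a replicate block 3 passed in WT and 4 in *Pctp*-/- livers, *Nr1i2* in addition (adjusted p = 0.0456), and the genotype comparisons stayed at 0 in every alternative. The minimum FPKM left out 1 receptor as used, 0 without it and 2 at a minimum of 5. Of 907 alternative fold changes of receptors, 859 kept direction and side of the threshold, 9 passed in addition, 1 was lost and 38 changed sign. None of those that changed sign was called as reported. With the GC content and length correction they were 0.27, 0.45, 0.098 and 0.18 for *Thra* (diet in WT, diet in *Pctp*-/-, knockout on MCD, difference of responses), 0.051 for *Nr1h3* (diet in WT) and 0.0096 for *Nr1i2* (difference). With median-of-ratios scaling and quantile normalization they were 0.038 and 0.047 for *Esr1* and 0.057 and 0.079 for *Thra* (knockout on MCD), 0.060 and 0.093 for *Thra* and 0.021 and 0.049 for *Thrb* (difference), and 0.012 for *Nr1i2* (difference, quantile only). With a library left out, the knockout effect on chow ranged from -0.042 to 0.071 for *Ahr*, -0.23 to 0.12 for *Nr1i2*, -0.23 to 0.14 for *Nr1i3* and -0.12 to 0.15 for *Thra*, and that on MCD from -0.12 to 0.032 for *Esr1* and -0.15 to 0.044 for *Thra*. The difference of responses ranged from -0.30 to 0.053 for *Nr1i2* and -0.19 to 0.079 for *Thra*, and the diet effect in WT from -0.23 to 0.041 for *Thra*. The cause of these shifts was not tested. Of 952 counts of list members called, 883 stayed within 1.5 times the reported count.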
